A study of Homo sapiens with 6 samples.

Results

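The 47 genes described here act in mitosis and in the G2 phase that leads into it. They were taken by gene symbol from a list drawn up with earlier results of these data known, and all 47 were found among the 46427 genes of the deposited expression table. RNA-seq was performed on 6 libraries from H460, H1299, and A549, which are human lines of non-small cell lung cancer (NSCLC) grown in culture. Each cell line gave 1 control library, whose label gives the treatment as "non", and 1 library from cells treated with si-MALAT1, an siRNA against the nuclear lncRNA MALAT1. The methods describe transient transfection with lipid, and they describe both negative controls and cells that received si-Control without stating which of them was sequenced, so transfection and the lowering of MALAT1 cannot be told apart. The time from transfection to RNA isolation is not given in the sources used here, and no library was a repeat of another.

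Read counts per library summed to between 42506818 and 68515992. MALAT1 was lower in the si-MALAT1 library of each cell line, by log2 fold changes of -2.96 (H1299), -2.84 (A549), and -2.32 (H460). The keratins KRT8 and KRT18, which mark epithelial cells, had TPM of at least 122.5 and 236.2 in the 6 libraries, while EPCAM stayed at or under 8.04 TPM, CDH1 had at least 27.8 TPM in A549 alone, and KRT19 at least 399 TPM in H460 alone. Of 6 markers of other cell types, the leukocyte genes PTPRC and CD3E had 0 reads in every library and PECAM1 and COL1A2 had at most 8, but CD14 had up to 840 reads and COL3A1 up to 4961, in H460 or A549.

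A dividing cell copies its DNA in S phase, passes through G2, and enters mitosis when cyclin B and the kinase CDK1 become active together. The chromosomes then condense, attach to the spindle through their kinetochores, and are held by the spindle checkpoint until all are attached, after which the anaphase-promoting complex marks securin and cyclin B for destruction and the cell divides. Transcripts of these genes are low in resting and G1 cells and peak in G2 and mitosis, so they are widely used as a readout of proliferation in tumors. In RNA from a whole culture, fewer cells in G2 and mitosis and less RNA in each such cell cannot be told apart.

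The response of the 47 genes to si-MALAT1 went in opposite directions in the cell lines. In H1299, 46 of the 47 genes were lower after si-MALAT1 than in the control, against 48.1% of all 17834 genes tested, and their median log2 fold change was -0.48. In H460, 38 of the 47 were higher, against 51.9% of all genes, with a median of 0.20. In A549, 30 were higher, against 50.7% of all genes, and 17 lower, against 49.3%, with a median of 0.08. Over all genes the medians were 0.01 in A549 and 0.02 in both other lines. These fold changes are differences in log2 of the scaled read count plus 1, si-MALAT1 minus control. With 1 library per cell line and condition they have no replicate check, and the 95% intervals given below are exact Clopper-Pearson intervals on the split of reads of one gene between both libraries, and cover counting error only. The difference between the cell lines was not tested.

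The lowest count of any of the 47 genes in any library was 470 reads, for SPC25 in the A549 control, and the widest interval reached 0.17 to either side. Of the intervals in H1299, 46 lay below 0 and 1 above, where 29.6% and 33.7% of all genes did. In H460, 35 lay above 0 and 6 below, where 31.3% and 27.8% of all genes did, and in A549 24 lay above and 13 below, where 29.5% and 27.6% did. The intervals included 0 for 6 genes in H460 and 10 in A549. Intervals narrow as counts rise, and the mean count per gene had a median of 7112 reads in the 47 genes against 880.5 in all genes tested. Opposite directions with neither interval holding 0 were found between H460 and H1299 for 34 of the 47 genes, where 18.2% of all genes had them, between H1299 and A549 for 23 (10.5% of all genes), and between H460 and A549 for 7 (9.58%). These are by scaled count, and some depend on that scale. By TPM, CENPF, TPX2, and DLGAP5 were below 0 in H460, and BUB3 was above 0 in A549.

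**Figure D1:**
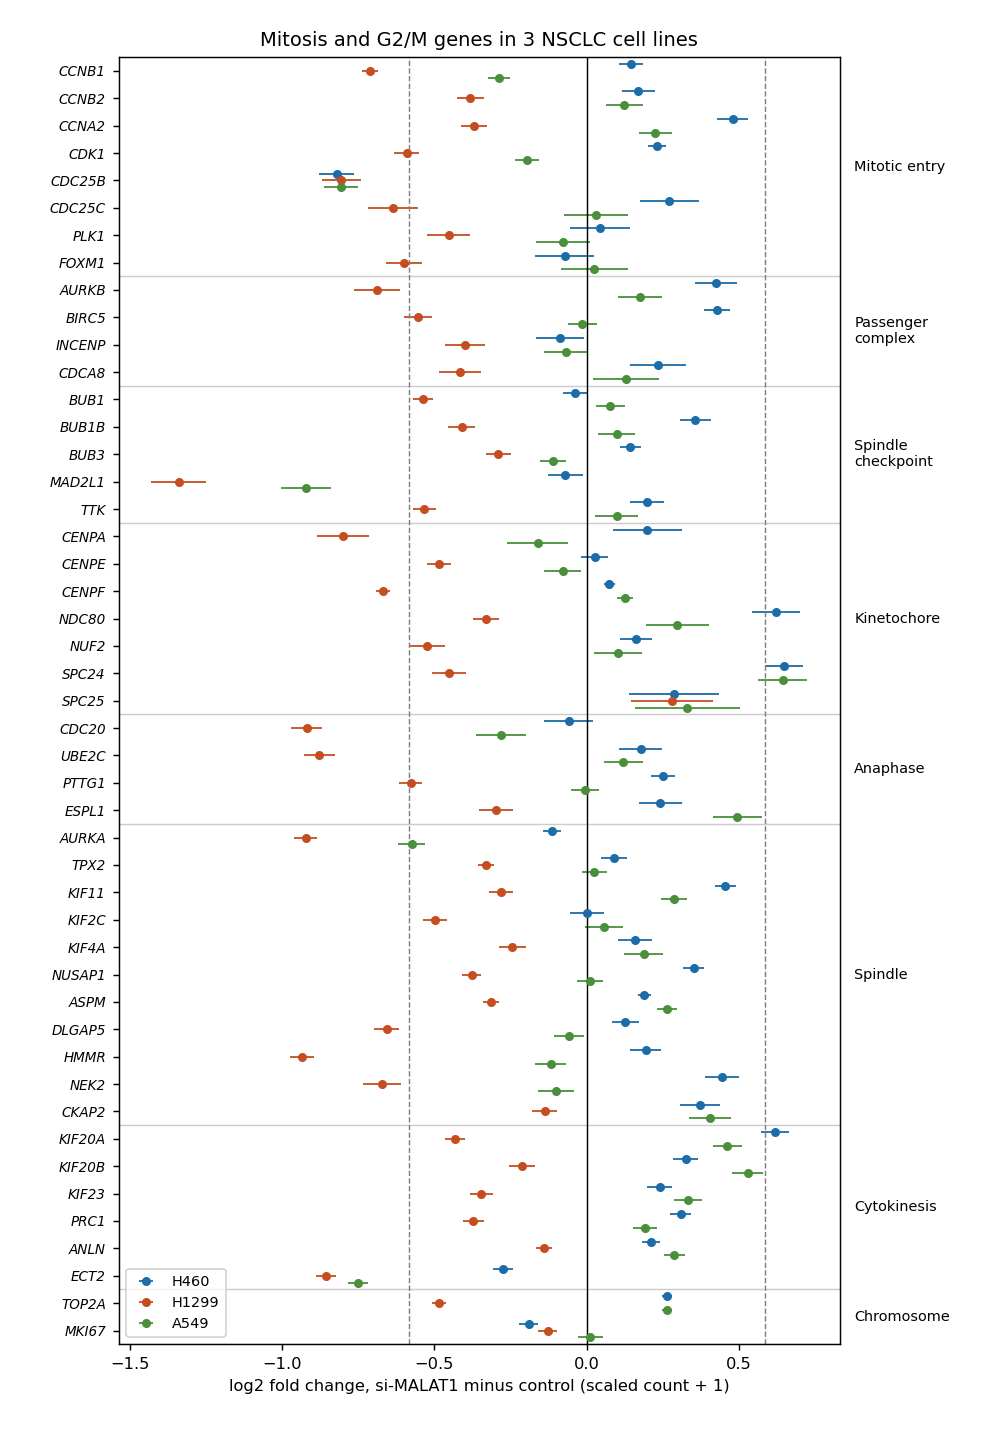
Log2 fold change of each of the 47 genes (si-MALAT1 minus control, log2 of scaled read count plus 1) in H460, H1299, and A549, grouped by role. Points are single comparisons of 1 library with 1 library, bars are 95% counting intervals, and dashed lines mark a fold change of 1.5. In H1299, 46 of the 47 points lie left of 0, while in H460 38 lie right of it.

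Larger differences were seen mainly in H1299. At a fold change of 1.5 or more, 16 of the 47 genes were lower in H1299, where 11.4% of all genes were, and 0 were higher, where 11.7% of all genes were. Those 16 were CCNB1, CDK1, CDC25B, CDC25C, FOXM1, AURKB, MAD2L1, CENPA, CENPF, CDC20, UBE2C, AURKA, DLGAP5, HMMR, NEK2, and ECT2. In H460, SPC24, NDC80, and KIF20A were higher by that measure and CDC25B was lower, 3 and 1 genes against 9.5% and 10.3% of all genes. In A549, SPC24 alone was higher and MAD2L1, CDC25B, and ECT2 were lower, 1 and 3 genes against 11.5% and 11.4%. In H460 and A549 the differences were thus mostly under 1.5-fold, and in H460 mostly of one sign. On the TPM scale, as log2(TPM + 1), no gene was higher by 1.5-fold in H460 or A549 and the H460 median was 0.07 beside -0.07 for all genes. The sign differed from that of the scaled counts for 6 genes in H460 (PLK1, CENPE, CENPF, TPX2, KIF2C, and DLGAP5), which were above 0 by scaled count and below 0 by TPM, and for 3 in A549 (CDC25C, BUB3, and MKI67).

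H1299 had the lowest fold change of the 3 cell lines for 45 of the 47 genes, the exceptions being CDC25B and MKI67, where 34.7% of all genes had it lowest in H1299. A549 lay between H460 and H1299, with H460 above, for 31 genes, where 20.8% of all genes did, and above H460 for 16, where 48.1% did. Higher in H460 and lower in H1299 were 37 genes, or 78.7%, where 22.4% of all genes were. Each cell line has its own control, so the 3 comparisons share no library. Over the 47 genes, the fold changes of H1299 and A549 had a Spearman correlation of 0.68, those of H460 and A549 0.63, and those of H460 and H1299 0.35, where the values over all genes were 0.33, 0.31, and 0.13. The points of these correlations are genes of shared libraries and are not independent, so they are given as a description.

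Across the cell lines, the paired test called none of the 47 genes. The quasi-likelihood test of edgeR, blocked on cell line and adjusted over 19122 genes by Benjamini-Hochberg, placed 0 of the 47 genes under an adjusted p of 0.05 as higher and 0 as lower, where it called 0% of all genes higher and 0.00523% lower, the latter being MALAT1 alone. At an unadjusted p under 0.05, 0 of the 47 were higher and 5 were lower, against 7.38% and 7.59% of all genes. Those 5 were CDC25B, ECT2, MAD2L1, AURKA, and CDC20. DESeq2's Wald test with the same design called 0 higher and 4 lower, the first 4 of these genes, against 4.15% and 4.25% of 13561 genes. Only 1 gene, SPC25, was higher in all 3 cell lines, where 21.4% of all genes were, and 6 were lower in all 3, where 18.8% were, namely the 5 above and INCENP. These are by any amount, and the intervals of INCENP in A549 (-0.14 to 0.003) and of CDC20 in H460 (-0.14 to 0.02) included 0.

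The promoters of these genes share short sequence elements. The cell cycle homology element (TTTGAA or TTCGAA, searched on both strands) is the site through which the MuvB core of the DREAM and B-MYB complexes is known to bind such promoters, and CCAAT is the site of the NF-Y factor. RefSeq promoters of the GRCh38.p14 build, 250 bases before to 50 after the transcription start, were found for 40 of the 47 genes, which have 50 promoters in the table. The homology element was in 33 of the 50 (66.0%), where 16.4% of all 35116 promoters held it, and CCAAT in 38 (76.0%), where 34.6% did. Both were in 28 (56.0%), where 6.38% of all promoters held both, and 2 or more CCAAT in 24 (48.0%), where 10.8% did. Matches of the homology element lay at a median of -28 bases from the start and those of CCAAT at -85, and matches of the 2 elements overlapped in 2 cases. In the 50 bases before the start, a window chosen after the positions were seen, the homology element was in 18 promoters (36.0%), where 2.73% of all promoters held it. Of 38 promoters of replication and G1/S genes, 3 (7.89%) held the homology element and 24 (63.2%) held CCAAT. A match of these letters is not a measured binding site.

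Stretches of 150 bases from 4 promoters are printed to show how the elements lie, for 3 genes of mitotic entry and for HMMR, one of the genes lowest in H1299. All are on the plus strand, written 5′ to 3′, with both elements in capitals on either strand (TTCAAA and ATTGG are the reverse complements). CCNB2 is at chr15:59105016-59105165, CDK1 at chr10:60778348-60778497, PLK1 at chr16:23678759-23678908, and HMMR at chr5:163460502-163460651.
CCNB2: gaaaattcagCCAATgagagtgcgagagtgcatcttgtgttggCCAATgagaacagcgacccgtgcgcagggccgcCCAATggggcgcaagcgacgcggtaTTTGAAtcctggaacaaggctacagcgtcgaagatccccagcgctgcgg
CDK1: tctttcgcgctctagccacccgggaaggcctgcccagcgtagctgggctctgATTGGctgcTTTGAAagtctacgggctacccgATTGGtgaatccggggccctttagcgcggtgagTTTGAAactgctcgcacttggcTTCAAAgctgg
PLK1: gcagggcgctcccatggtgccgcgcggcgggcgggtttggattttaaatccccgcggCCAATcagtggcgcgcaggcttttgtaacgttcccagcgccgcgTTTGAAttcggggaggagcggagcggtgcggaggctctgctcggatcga
HMMR: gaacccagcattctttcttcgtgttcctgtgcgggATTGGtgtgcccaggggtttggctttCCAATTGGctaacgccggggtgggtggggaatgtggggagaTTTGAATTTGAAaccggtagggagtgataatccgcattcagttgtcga

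In these stretches CCNB2 showed 3 CCAAT in a row upstream of 1 homology element, PLK1 1 of each, CDK1 2 and 3, and HMMR 3 and 2. For a gene with more than 1 promoter, the promoter with the most matches was printed. Another CDK1 promoter held 1 of each element. In HMMR, CCAATTGG counts as 2 overlapping CCAAT matches, 1 on each strand. The medians of genes with and without an element had the same sign in every cell line. In the order H460, H1299, and A549, the medians of the 30 genes with a homology element were 0.20, -0.41, and 0.10, and the 10 without one had 0.40, -0.49, and 0.12. With CCAAT the medians were 0.23, -0.45, and 0.08 over 33 genes, and without it 0.21, -0.41, and 0.10 over 7.

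**Figure D2:**
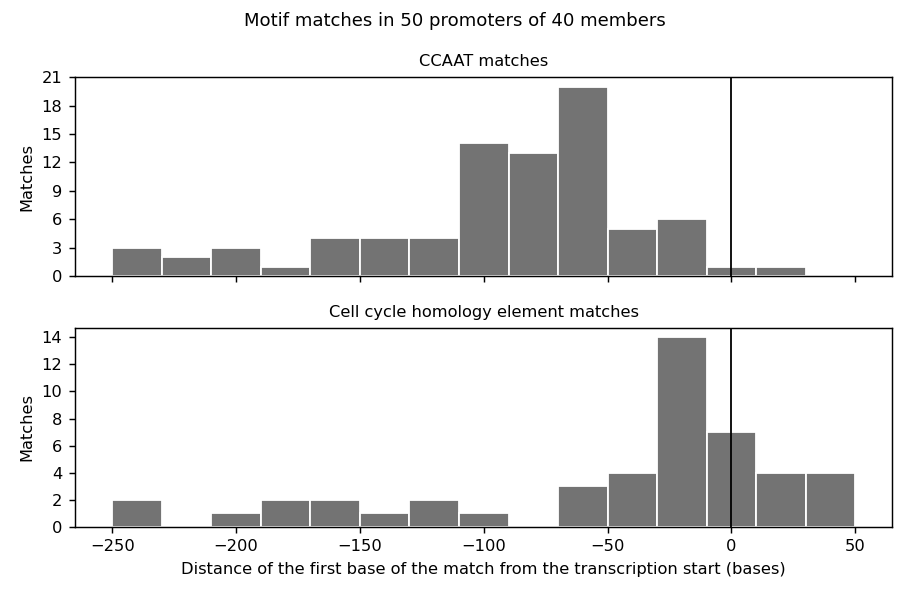
Number of matches of CCAAT (upper panel) and of the cell cycle homology element (lower panel) by distance in bases from the transcription start (vertical line), in bins of 20 bases over the 50 promoters of 40 genes. CCAAT matches lie mostly upstream, with a median of -85, and homology element matches closer to the start, with a median of -28.

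Among the 8 genes of mitotic entry, all 8 were lower in H1299, 6 were higher in H460, and 4 were higher in A549, with medians of -0.59, 0.16, and -0.03. CCNB1 (Gene ID 891, chr5:69167010-69178245) encodes cyclin B1, whose binding activates CDK1. Its scaled counts, given here and below as the control against the si-MALAT1 library, were 9563 against 10588 in H460, 25789 against 15763 in H1299, and 16961 against 13904 in A549. The gene was lower in H1299 and A549 and slightly higher in H460, and the H1299 control stood highest of the 6 libraries. As log2 fold changes these were 0.15 (95% interval 0.11 to 0.19) for H460, -0.71 (-0.74 to -0.68) for H1299, and -0.29 (-0.32 to -0.25) for A549, and the paired edgeR test gave an adjusted p of 0.488. CDK1 (chr10:60778331-60794852), the kinase itself, had scaled counts of 17421 against 20448 in H460, 9882 against 6564 in H1299, and 13317 against 11629 in A549. CDK1 showed the same order of responses as CCNB1, with log2 fold changes of 0.23, -0.59, and -0.20, but its level was highest in H460.

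CCNB2 and CCNA2, which encode cyclins B2 and A2, were lower in H1299 (-0.38 and -0.37) and higher in H460 (0.17 and 0.48) and in A549 (0.12 and 0.23). PLK1, a kinase that promotes entry and spindle assembly, had scaled counts of 1576 against 1625 in H460, 3320 against 2425 in H1299, and 2736 against 2592 in A549. Only the H1299 libraries of PLK1 differed beyond counting error, with a log2 fold change of -0.45 (-0.52 to -0.38), while the H460 and A549 intervals included 0. FOXM1 encodes a transcription factor that drives many genes of this group. Its scaled counts were 1724 against 1641 in H460, 5024 against 3316 in H1299, and 1660 against 1690 in A549. FOXM1 was thus about as low in H460 as in A549, with intervals that included 0, and was lower after si-MALAT1 in H1299 (-0.60, -0.66 to -0.54). Of the FOXM1 exon bases, 12.1% overlap ITFG2 on the opposite strand, and whether counting used the strand is not given in the sources used here.

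The phosphatases that remove the inhibitory phosphates of CDK1 went different ways. CDC25B (chr20:3786772-3806121) had scaled counts of 6666 against 3773 in H460, 4507 against 2579 in H1299, and 8559 against 4890 in A549. Each si-MALAT1 library was below its control by nearly the same factor. Log2 fold changes were -0.82 (-0.88 to -0.76), -0.81 (-0.87 to -0.74), and -0.81 (-0.86 to -0.75), with an SD over the 3 cell lines of 0.0086, the smallest among the 47 genes, whose median SD was 0.386. It was the only one of the 47 that was lower by 1.5-fold in all 3 cell lines, where 1.28% of all genes were. The paired log2 fold change was -0.83 ± 0.10 (SE), with an adjusted p of 0.0734 by edgeR and 3.26e-11 by DESeq2, so the call depends on the test. CDC25C, by contrast, was lower in H1299 alone (-0.64, -0.72 to -0.55), was higher in H460 (0.27), and had an interval that included 0 in A549.

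**Figure D3:**
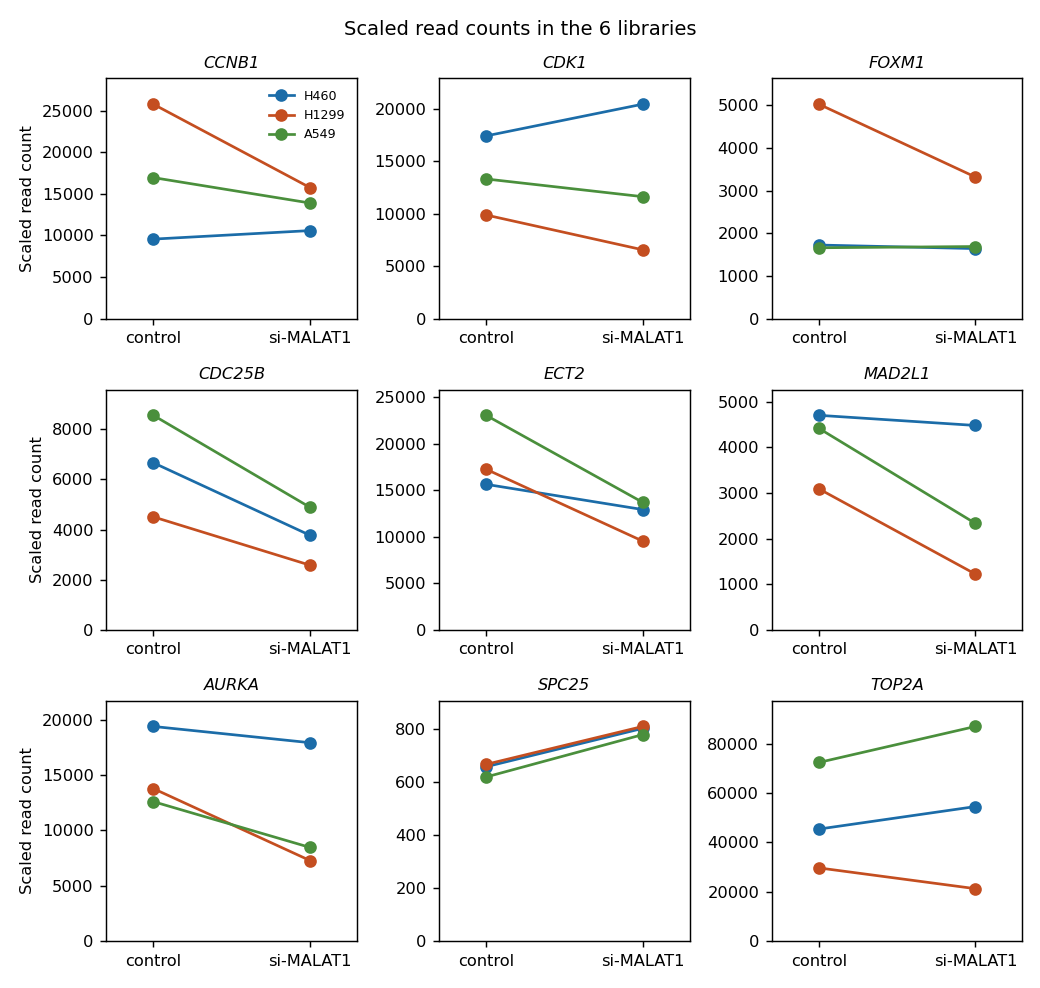
Scaled read counts of 9 genes in the 6 libraries, with a line joining the control and the si-MALAT1 library of a cell line and each vertical axis starting at 0. CDC25B is lower by a like factor in the 3 cell lines, SPC25 is higher in all 3, and CCNB1, CDK1, and TOP2A are higher in H460 and lower in H1299.

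The chromosomal passenger complex, in which the kinase AURKB is carried by INCENP, survivin (BIRC5), and borealin (CDCA8), corrects faulty attachments and acts in cytokinesis. All 4 genes were lower in H1299, with log2 fold changes from -0.69 for AURKB to -0.40 for INCENP. AURKB and BIRC5 were both higher in H460 by 0.43, CDCA8 by 0.24, and INCENP was lower by a margin near counting error (-0.09, -0.17 to -0.01). In A549 AURKB was higher by 0.18 (0.10 to 0.25), whereas BIRC5 differed by less than counting error.

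Of the 5 spindle checkpoint genes, all were lower in H1299, 3 were higher in H460, and 3 were higher in A549. BUB1, BUB1B, BUB3, and TTK, whose products signal from unattached kinetochores, ranged in log2 fold change from -0.54 to -0.29 in H1299, from -0.04 to 0.36 in H460, and from -0.11 to 0.10 in A549, where BUB3 had the value -0.11 by scaled count and 0.26 by TPM. MAD2L1 (chr4:120055623-120066848) encodes MAD2, the protein that binds and holds back CDC20. Its scaled counts were 4701 against 4478 in H460, 3089 against 1220 in H1299, and 4415 against 2330 in A549. The si-MALAT1 libraries of H1299 and A549 were the lowest of the 6, and the 2 libraries of H460 were nearly level. The log2 fold change of MAD2L1 was -0.07 (-0.13 to -0.01) for H460, -1.34 (-1.43 to -1.25) for H1299, and -0.92 (-1.0 to -0.84) for A549. The SD over cell lines, 0.647, was the largest of the 47 genes, and the values for H1299 and A549 were the lowest of the 47 in both cell lines. The paired log2 fold change was -0.79 ± 0.24 (SE), with an adjusted p of 0.216 by edgeR and 0.0319 by DESeq2, and with 1 pair left out edgeR gave -1.14 (adjusted p = 0.0385) without H460, -0.50 (adjusted p = 0.392) without H1299, and -0.72 (adjusted p = 0.895) without A549. The fit without H460 called 51 genes higher and 112 lower over all genes, where the fit with all pairs called 0 and 1.

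The kinetochore genes held the highest value of the 47 in each cell line, SPC24 in H460 and A549 and SPC25 in H1299. CENPA encodes the histone variant that marks centromeres, CENPE a motor, and CENPF a large kinetochore-associated protein. NDC80, NUF2, SPC24, and SPC25 encode the 4 subunits of the NDC80 complex, which grips spindle microtubules. All 7 genes were above 0 in H460, 6 were below 0 in H1299, and 5 were above 0 in A549, with medians of 0.20, -0.48, and 0.13, but CENPE and CENPF were below 0 in H460 by TPM. SPC24 (chr19:11145493-11155997) had scaled counts of 3261 against 5115 in H460, 5133 against 3753 in H1299, and 2639 against 4126 in A549. Its level after si-MALAT1 was thus higher in 2 cell lines and lower in the third, by 0.65 (0.59 to 0.71) in H460, 0.64 (0.56 to 0.72) in A549, and -0.45 (-0.51 to -0.40) in H1299 on the log2 scale.

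NDC80 (chr18:2571557-2616635) had scaled counts of 2033 against 3130 in H460, 8739 against 6952 in H1299, and 1719 against 2115 in A549. Both H1299 libraries stood above all other libraries, and the log2 fold changes were 0.62, -0.33, and 0.30. SPC25 (chr2:168865045-168890443) was the only gene of the 47 higher in all 3 cell lines. Its scaled counts were 657 against 802 in H460, 666 against 810 in H1299, and 619 against 779 in A549. Its 3 controls were nearly level across cell lines, and so were its 3 si-MALAT1 libraries. Log2 fold changes were 0.29, 0.28, and 0.33, and the paired value was 0.28 ± 0.12 (SE) with an adjusted p of 0.362 by edgeR. SPC25 shares 20.6% of its exon bases with NOSTRIN on the opposite strand, more than any other of the 47. The subunits of 1 complex therefore differed in H1299, where SPC25 was higher and NUF2, SPC24, and NDC80 were lower, with -0.52, -0.45, and -0.33 on the log2 scale.

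The 4 genes of anaphase had the lowest median of any role in H1299, -0.73. CDC20 activates the anaphase-promoting complex, UBE2C is one of its ubiquitin-conjugating enzymes, PTTG1 is securin, and ESPL1 is separase, the protease that securin holds back. CDC20 was level in H460 (-0.06, -0.14 to 0.02) and lower in H1299 (-0.92, -0.97 to -0.87) and A549 (-0.28, -0.36 to -0.20), with a paired adjusted p of 0.329 by edgeR and 0.213 by DESeq2, and its paired value moved from -0.44 to -0.18 without the H1299 pair. UBE2C was lower in H1299 (-0.88) and higher in H460 (0.18) and A549 (0.12). PTTG1 had the highest TPM of the 47 in 5 of the 6 libraries, between 222.7 and 351.3, and was lower in H1299 (-0.58) and higher in H460 (0.25). Its near-identical copies PTTG2 and PTTG3P had at most 12 reads, and CDC20P1, a copy of CDC20, had up to 387. ESPL1 had scaled counts of 2867 against 3393 in H460, 4637 against 3774 in H1299, and 2761 against 3891 in A549. ESPL1 and PTTG1 thus moved apart in A549, where ESPL1 was higher by 0.50 (0.42 to 0.58) and PTTG1 differed by less than counting error.

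Among the 11 spindle genes, all 11 were lower in H1299, 10 were above 0 in H460, of which TPX2, KIF2C, and DLGAP5 were below 0 by TPM, and 7 were above 0 in A549. AURKA (chr20:56369389-56392337), a centrosome kinase that TPX2 activates, had scaled counts of 19380 against 17912 in H460, 13766 against 7266 in H1299, and 12586 against 8451 in A549. All 3 si-MALAT1 libraries lay below their controls. Log2 fold changes were -0.11 (-0.14 to -0.08), -0.92 (-0.96 to -0.88), and -0.57 (-0.62 to -0.53), and the paired value was -0.55 ± 0.17 (SE), with an adjusted p of 0.222 by edgeR and 0.0462 by DESeq2. Without the H1299 pair it was -0.35 (adjusted p = 0.377 by edgeR). TPX2 did not follow AURKA, with values of 0.09, -0.33, and 0.03. HMMR, a spindle-associated hyaluronan receptor, had scaled counts of 5276 against 6034 in H460, 12089 against 6326 in H1299, and 8420 against 7759 in A549. HMMR spanned 2.29-fold from lowest to highest over the 3 controls and 1.29-fold over the 3 si-MALAT1 libraries.

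The spindle motors KIF11, KIF2C, and KIF4A ranged in log2 fold change from -0.50 to -0.24 in H1299, from 0.00 to 0.46 in H460, and from 0.06 to 0.29 in A549. CKAP2, which stabilises microtubules, had scaled counts of 3258 against 4220 in H460, 8693 against 7901 in H1299, and 3740 against 4952 in A549. The difference in H1299 was small (-0.14, -0.18 to -0.10), and CKAP2 was higher in H460 (0.37) and A549 (0.40). DLGAP5 and NEK2 were lower in H1299 (-0.66 and -0.67), while NUSAP1 and ASPM had -0.38 and -0.32 there. In H460 those 4 genes were higher by 0.13, 0.45, 0.35, and 0.19.

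The 6 cytokinesis genes had nearly the same median in A549 (0.31) as in H460 (0.28), with -0.36 in H1299, and 5 of the 6 were above 0 in both H460 and A549. KIF20A, a motor of the central spindle, had scaled counts of 6129 against 9410 in H460, 14417 against 10684 in H1299, and 7554 against 10412 in A549. Counts of the 3 si-MALAT1 libraries lay closer together than those of the 3 controls, and the log2 fold changes were 0.62, -0.43, and 0.46. KIF20B, a related motor, had scaled counts of 7870 against 9865 in H460, 7485 against 6462 in H1299, and 6526 against 9416 in A549, and it was 1 of the 3 highest of the 47 in A549 (0.53, 0.48 to 0.58). KIF23, PRC1, and ANLN, which build the central spindle and the contractile ring, were above 0 in H460 and A549 (0.19 to 0.33) and below 0 in H1299 (-0.37 to -0.14).

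ECT2 was the exception among the cytokinesis genes. ECT2 (chr3:172750685-172829273) encodes the exchange factor that activates RhoA at the cell equator. Its scaled counts were 15621 against 12911 in H460, 17241 against 9523 in H1299, and 23031 against 13685 in A549. In each cell line the si-MALAT1 library lay below its control. Log2 fold changes were -0.27 (-0.31 to -0.24), -0.86 (-0.89 to -0.82), and -0.75 (-0.79 to -0.72), with a paired value of -0.65 ± 0.15 (SE) and an adjusted p of 0.142 by edgeR and 0.00284 by DESeq2. The exons of ECT2 overlap the pseudogene ATP5MC1P4 on the opposite strand over 10.5% of their bases.

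The chromosome genes TOP2A and MKI67 are the usual markers of cycling cells, TOP2A as the topoisomerase that untangles sister DNA and MKI67 as the Ki-67 antigen that coats mitotic chromosomes. TOP2A (chr17:40388525-40417902) had scaled counts of 45451 against 54608 in H460, 29674 against 21225 in H1299, and 72519 against 87164 in A549. It was higher in H460 and A549 and lower in H1299, its log2 fold change being 0.26 in H460 (0.25 to 0.28), 0.27 in A549 (0.25 to 0.28), and -0.48 in H1299 (-0.51 to -0.46). MKI67 (chr10:128096659-128126423) had scaled counts of 16876 against 14797 in H460, 13687 against 12529 in H1299, and 12557 against 12667 in A549. It was lower in H460 (-0.19, -0.22 to -0.16), and somewhat less so in H1299 (-0.13, -0.16 to -0.10), and its interval in A549 included 0. The 2 markers therefore gave opposite signs in H460.

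Levels of the genes were also set side by side between cell lines. Summed over the 47 genes, TPM, which is scaled for transcript length, was 2311 against 2400 in H460, 3648 against 2618 in H1299, and 2950 against 2968 in A549. The H1299 control stood above all other libraries, and the H1299 si-MALAT1 library lay between H460 and A549. For 32 of the 47 genes (68.1%), the fold from the lowest to the highest scaled count of the 3 cell lines was smaller among si-MALAT1 libraries than among controls, where 49.7% of all genes were, a comparison chosen after the values were seen. For others it was larger, from 1.52 over controls to 3.67 over si-MALAT1 libraries for MAD2L1 and from 2.44 to 4.11 for TOP2A. CDK1 went from 1.76 to 3.12 and AURKA from 1.54 to 2.47. The median of that fold was 1.67 over the controls and 1.51 over the si-MALAT1 libraries for the 47 genes, and 2.14 and 2.16 for all genes. The share of reads from these genes was 0.663% against 0.739% in H460, 0.934% against 0.666% in H1299, and 0.772% against 0.822% in A549.

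**Figure D4:**
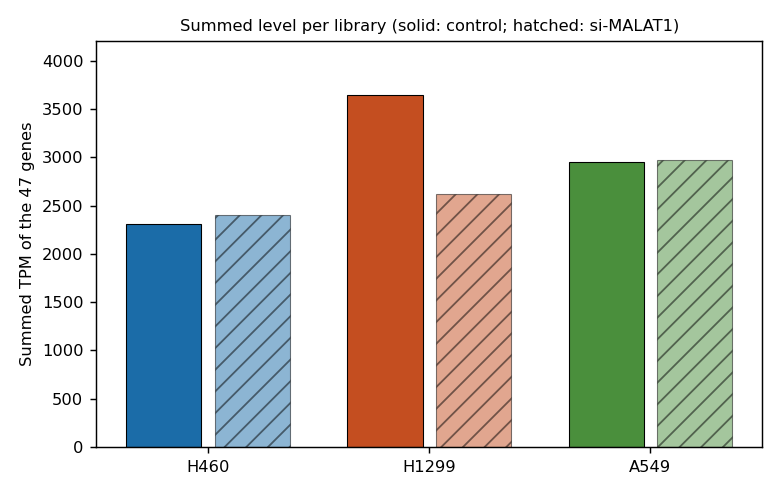
Summed TPM of the 47 genes in each library, as bars from 0, with controls solid and si-MALAT1 libraries hatched. The H1299 control (3648) is the highest bar, beside 2618 after si-MALAT1, while H460 and A549 are nearly level.

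In the same edgeR fit, averaged over treatment, 11 of the 47 genes were higher in H1299 than in H460 (adjusted p under 0.05) and 9 were lower, where 26% and 26.6% of all genes were. A549 exceeded H460 for 3 genes and fell short of it for 3, against 18.9% and 19.3% of all genes, and H1299 exceeded A549 for 9 and fell short for 4, against 24.5% and 24.4%. The shares of the 47 genes called, from 6.38% to 23.4%, were thus below those of all genes in each contrast. NDC80 differed most, with a log2 difference of 1.62 ± 0.24 (SE) between H1299 and H460 (adjusted p = 0.00199) and of 2.04 ± 0.24 between H1299 and A549 (adjusted p = 0.00102). FOXM1 was higher in H1299 than in H460 or A549 by 1.28 on the log2 scale in both contrasts (adjusted p = 0.00192 and 0.00225). CDK1 was lower in H1299 than in H460, with a log2 difference of -1.24 ± 0.21 (adjusted p = 0.00379), and TOP2A was lower in H1299 than in A549, with -1.66 ± 0.22 (adjusted p = 0.00163). The 2 libraries of a cell line are a control and a treated culture, not repeats, and these counts moved widely when 1 library was left out. The shares of all genes in those reduced fits were not taken. Whether the shifts are particular to the 47 genes therefore cannot be told. Without the H1299 si-MALAT1 library 23 genes were higher in H1299 than in H460 and 22 higher than in A549, whereas without the H1299 control 15 were lower than in H460 and 12 lower than in A549. Without the H460 control the first of these counts was 6. Leaving out any single library of H460 or A549 also moved at least 1 of the 6 counts by over 1.5 times, and the full ranges are 6 to 23 and 4 to 15 for H1299 against H460, 0 to 8 and 0 to 6 for A549 against H460, and 2 to 22 and 2 to 12 for H1299 against A549, higher and lower in turn.

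Other genes of the same pathway, in 8 lists of 130 genes, were counted for comparison. The 8 condensin genes, which compact chromosomes, had a median of -0.47 in H1299 beside 0.22 in H460 and 0.12 in A549, and all 8 were below 0 in H1299. Of 27 further centromere and kinetochore genes, 25 were above 0 in H460 and 25 below 0 in H1299, with medians of 0.26 and -0.20. The 7 other mitotic motors were all below 0 in H1299 (median -0.52), and 6 were above 0 in H460. In H460 and H1299, the 17 genes of the anaphase-promoting complex and its partners had medians (0.05 and -0.23) nearer 0 than the 47 genes. So did the 12 cohesin genes (0.06 and -0.13), whose products hold sister chromatids together. In A549 the medians of these lists were below 0, at -0.18 and -0.10, beside 0.08 for the 47 genes. There 13 of the 17 and 7 of the 12 genes were below 0, where 49.3% of all genes were.

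Replication and G1/S genes showed the same split between H460 and H1299, with medians further apart than those of the 47. The median of those 35 genes was -0.72 in H1299 beside 0.34 in H460 and -0.14 in A549. In H1299 all 35 were below 0 and 25 were lower by 1.5-fold or more, or 71.4% beside 34% of the mitotic genes, and in A549 26 of the 35 were below 0 where 17 of the 47 were. Regulators of these promoters, the 15 MuvB, DREAM, and NF-Y genes, had medians of -0.05, -0.20, and -0.16. Single genes of that list went different ways. LIN54 was higher in all 3 cell lines (0.38, 0.09, and 0.61), and LIN52 was lower in all 3 (-0.32, -0.37, and -0.16). For LIN9 and LIN37 the sign differed between cell lines. RBBP4, a histone-binding subunit of the MuvB core and of other complexes, was lower in all 3 cell lines, with log2 values of -0.47, -1.08, and -1.09, and passed by DESeq2 (adjusted p = 3.72e-05) but not by edgeR (adjusted p = 0.0994).

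**Figure D5:**
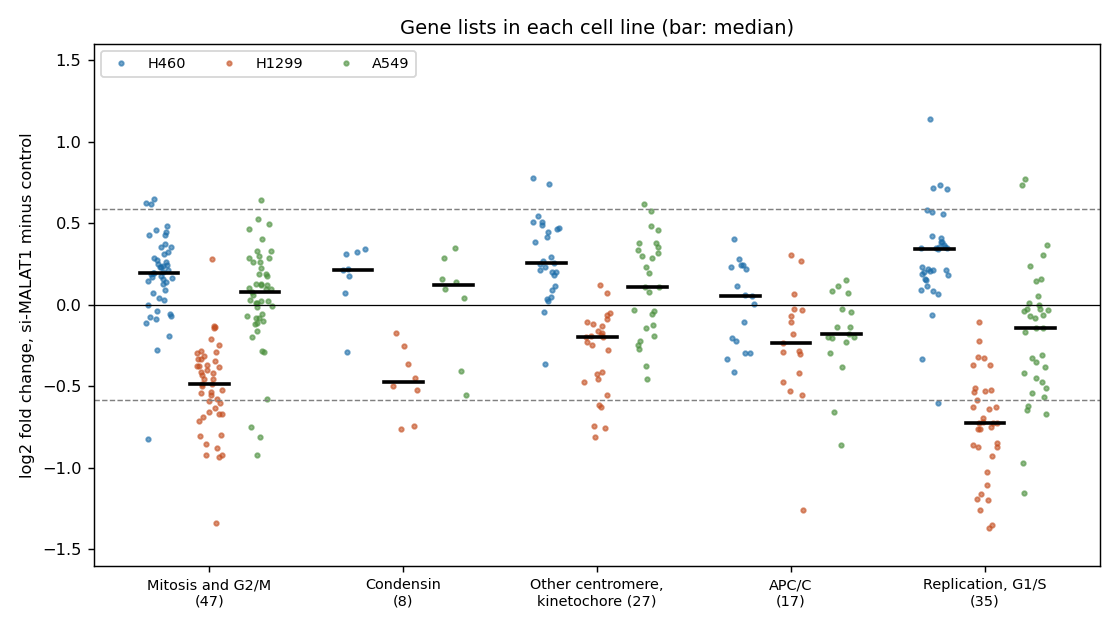
Log2 fold changes (si-MALAT1 minus control) of the 47 genes and of 4 related lists in each cell line, with 1 point per gene, black bars at medians, and dashed lines at a fold change of 1.5. In H1299 the medians are -0.48 for the 47 genes and -0.72 for replication and G1/S genes, and in H460 they are 0.20 and 0.34.

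The 9 inhibitors of G2 and mitosis had medians of 0.04, 0.11, and 0.00 in H460, H1299, and A549. WEE1, the kinase that places the inhibitory phosphate on CDK1 which CDC25 phosphatases remove, was higher in all 3 cell lines, with scaled counts of 1801 against 2424 in H460, 1559 against 2024 in H1299, and 2321 against 3202 in A549. WEE1 differed by 0.43, 0.38, and 0.46 on the log2 scale, and it passed by DESeq2 (adjusted p = 0.014) but not by edgeR (adjusted p = 0.167). CDKN1B, which encodes the CDK inhibitor p27, was higher by 0.87, 0.40, and 0.26 (adjusted p = 0.0382 by DESeq2 and 0.212 by edgeR). CDKN1A, which encodes p21, was higher in H460 (0.46) and H1299 (0.71) and level in A549 (0.00). Over the 130 genes of the 8 lists, the paired edgeR test called 0. At an unadjusted p under 0.05 it had 22, where 7.38% of all genes were higher and 7.59% lower. DESeq2 called 2 of the 130 higher, WEE1 and CDKN1B, where it called 4.15% of all genes higher. It called 8 lower, where 4.25% of all genes were, namely NCAPG2, CDC27, UBE2S, MIS12, RBBP4, RBL2, TYMS, and RFC5. Among these, UBE2S, the ubiquitin-conjugating enzyme that extends chains on the anaphase-promoting complex, was lower in all 3, with log2 values of -0.41, -1.26, and -0.86.

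The 3′ UTRs were searched for TGAATCA and ATGAATC, 2 overlapping words picked for their presence in genes lower in all 3 of these cell lines, so a match is no independent evidence. In GENCODE canonical transcripts on GRCh38, 3 of the 47 genes (6.38%) held either word, where 15.9% of 19206 genes did. The sites are printed with 10 bases on either side and the word in capitals, 5′ to 3′ on the transcribed strand, for CDC25B (chr20:3805696-3805722, plus strand), BUB1 (chr2:110637907-110637933, minus strand), and MAD2L1 (chr4:120059591-120059617, minus strand).
CDC25B: ggttaaggccTGAATCAtgagcctgct
BUB1: cactgtaaatATGAATCtgctcacttt
MAD2L1: ttttccctatTGAATCAgtttccaatt

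BUB1 differed by less than counting error in H460 and was higher in A549 (0.08, 0.03 to 0.13).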

How the data were processed

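After trimming, the authors mapped reads to hg38 by HISAT 2.1.0 and estimated abundances per gene on an NCBI annotation with StringTie, as read counts that were deposited without normalization and as TPM that the authors scaled for length and depth. The methods and the submitters' notes name different StringTie versions (1.3.4b in the notes). Columns of 6 FPKM values and 18 columns of samples of another study were not used. Counts were scaled with RLE size factors, genes with 0 reads in any of the 6 libraries were left out (17834 remained), and log2 fold changes were taken with a pseudocount of 1 at a threshold of 1.5-fold.

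Pairs come from the cell line, the block in edgeR 4.0.16 (quasi-likelihood, TMM, filterByExpr, 19122 genes, Benjamini-Hochberg, 2 residual degrees of freedom). DESeq2 1.42.0 was an alternative. In simulated counts of 18469 genes, the paired test recovered 96% of 200 genes changed by 4-fold, and 1.03% of its calls were false. Recovery at smaller folds, such as the 1.5-fold threshold used within cell lines, was not tested. The 47 genes, the lists, and the named genes (6 regulators and markers and the 3 highest and lowest in each cell line) were chosen with earlier results of these data known. Gene positions come from the deposited annotation (GRCh38). Software was Python 3.11.15 (numpy 2.4.6, pandas 2.3.3, matplotlib 3.10.9) and R 4.3.3.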

Additional observations from a re-analysis of the deposited data

Results flagged for a closer look

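Opposite directions between cell lines drew attention because a gene was higher in 1 cell line and lower in another with both counting intervals off 0, and these differences were not tested. H460 and H1299 were opposite for 34 of the 47 genes, where 18.2% of all genes were, H1299 and A549 for 23, where 10.5% were, and H460 and A549 for 7, where 9.58% were. These are by scaled count. By TPM, CENPF, TPX2, and DLGAP5 were below 0 in H460, and BUB3 was above 0 in A549. The median log2 fold change of the 47 genes was 0.198 in H460 and -0.483 in H1299. Among genes with values given in full, 10 of 18 differed in sign in this way. The log2 fold change in H1299 minus that in H460 was -1.13 for HMMR, -1.10 for SPC24, -1.05 for KIF20A, -0.95 for NDC80, -0.86 for CCNB1, -0.82 for CDK1, -0.75 for TOP2A, -0.54 for KIF20B, -0.54 for ESPL1, and -0.51 for CKAP2.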

How the results depend on the processing

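With 1 library per cell line and condition, the direction within a cell line rests on 2 cultures, and depth limits only the smallest differences. The medians and the named paired values kept their direction, but on log2(TPM + 1) the sign turned for 6 single genes in H460 and 3 in A549, and without the H1299 control the balance between cell lines turned (8 genes higher and 15 lower in H1299 than in H460, 5 and 12 than in A549). In the paired test, DESeq2 called 4 of the 47 genes lower where edgeR called 0, and leaving out each cell line in turn gave 0 to 1 lower (1 without H460, MAD2L1) and 0 higher. Over all genes, edgeR called 51 higher and 112 lower without H460, beside 0 and 1 with all 3 cell lines. Without the block that pairs the libraries of a cell line, edgeR called 0 higher and 0 lower. Between cell lines, DESeq2 called 7 genes higher and 5 lower in A549 than in H460 and 7 lower in H1299 than in A549. Without the filter on low counts the last count was 2. For these contrasts, shares of all genes were not taken under other settings or with 1 library left out. Leaving out 1 library gave 6 to 23 genes higher and 4 to 15 lower in H1299 than in H460, 0 to 8 and 0 to 6 in A549 than in H460, and 2 to 22 and 2 to 12 in H1299 than in A549, with fewer samples in each fit. On log2(TPM + 1), 0 genes were higher by 1.5-fold in H460 and 0 in A549, and the medians were 0.0689 in H460 and -0.413 in H1299; the cause was not tested. With 1.5 required on the log2 scale, 0 genes passed in any cell line in either direction. At 1.2-fold, H1299 had 1 gene higher and 41 lower, A549 12 and 6, and H460 16 and 2. The shares of all genes at 1.2-fold were not taken, so these counts have no background beside them. TMM or total count scaling, a pseudocount of 10, and a mean count of at least 50 left every count within 1.5 times its value.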
